A study of Mus musculus with 4 samples.

Results

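The genes described here are the translation factors of mouse testis and 3 germ cell proteins that bind messenger RNA. They were taken from the array's platform annotation as every probe set that names exactly 1 gene whose symbol starts with Eif, Eef or Pabp, or is Ybx2, Dazl or Ddx4. This gave 75 probe sets for 56 genes, of 8252 genes named in this way on the array. Each gene is represented by the probe set with the highest mean signal over the 4 arrays, so that 41 genes formed an initiation class, 8 an elongation class and 7 an mRNA-binding class.

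The arrays held RNA of whole testis from Tslc1-/- males (2 arrays) and from Tslc1+/+ males (2 arrays), all of the C57BL/6J strain and 16 weeks old. Tslc1 is named Cadm1 in current annotation and encodes an immunoglobulin-type protein that joins cells to each other. How the allele was made, and whether the 2 arrays of each genotype hold RNA of different mice, is not given in the sources used here. The p-values therefore rest on the spread among 4 arrays alone, and this spread may be technical.

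Translation starts when initiation factors load the small ribosomal subunit with the initiator tRNA, bind the mRNA cap and scan to the start codon. Elongation factors then deliver aminoacyl-tRNAs and move the ribosome along the message, while poly(A)-binding proteins on the tail support initiation and protect the mRNA. Male germ cells rely on this control late in their development, because transcription stops as the spermatid nucleus condenses and many sperm proteins are made from mRNAs stored earlier with RNA-binding proteins such as YBX2.

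The Cadm1 signal was 443.5 and 444.9 on the Tslc1-/- arrays, against 3960.0 and 3925.2 on the Tslc1+/+ arrays, on the first of its tested probe sets. It fell by 3.01 on the log2 scale (limma, Benjamini-Hochberg adjusted p = 2.31e-05), and fell by 2.36 on the second (adjusted p = 1.83e-04). Median signals were 377.7 and 365.15 on the Tslc1-/- arrays and 361.5 and 378.0 on the Tslc1+/+ arrays. Markers of the labelled tissue passed the signal filter on these arrays. Among them were 6 of 7 meiotic, 7 of 7 round spermatid, 12 of 12 elongating spermatid, 9 of 9 Sertoli and 7 of 7 Leydig cell genes present on the array. The filter was also passed by 2 of 3 fat, 2 of 3 erythrocyte and 1 of 3 epididymis genes. Passing it does not by itself identify the tissue.

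Of the 56 genes, 49 reached the mean signal of 200 required for testing, within a fit of 7975 probe sets. Most of these genes had small estimated changes between genotypes, though intervals of dim genes were wide, as from -2.17 to 1.81 for Eef2k. The log2 changes, Tslc1-/- minus Tslc1+/+ after adding 50 to each signal, ran from -0.75 to 0.65, with a median of 0.03 over the 49 genes and 0.02 over all tested probe sets. The size was below 0.5 for 43 of the 49 genes (87.8%, against 80.0% of all tested probe sets) and below 0.25 for 35 (71.4%, against 54.8%). Among genes with a mean signal of at least 5000 it was below 0.5 for 13 of 14 (92.9%), against 92.0% of all tested probe sets of that brightness. It was below 0.25 for 12 of these 14 (85.7%), against 74.9% of those probe sets.

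A single gene of the 49 passed the test: Eef1d fell, and none rose (limma, Benjamini-Hochberg adjusted p under 0.05 over all tested probe sets). The 1 call is 2.04% of the genes tested here, against 1.08% of all tested probe sets called in either direction, 0.84% called lower and 0.238% called higher. Calls came more often at high signal: among the 14 genes with a mean signal of at least 5000, 1 was called (7.14%), against 7.28% of all tested probe sets of that brightness. At an unadjusted p under 0.05 stood 6 of the 49 genes, 4 lower and 2 higher, where 10.0% of all tested probe sets did so. Both Tslc1-/- arrays lay below both Tslc1+/+ arrays for 10 of the 49 genes (20.4%, against 18.5% of all tested probe sets) and above them for 9 (18.4%, against 21.5%). A single call is too few to set apart from the array's own share, and the other shares were near those of the whole array.

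**Figure D1:**
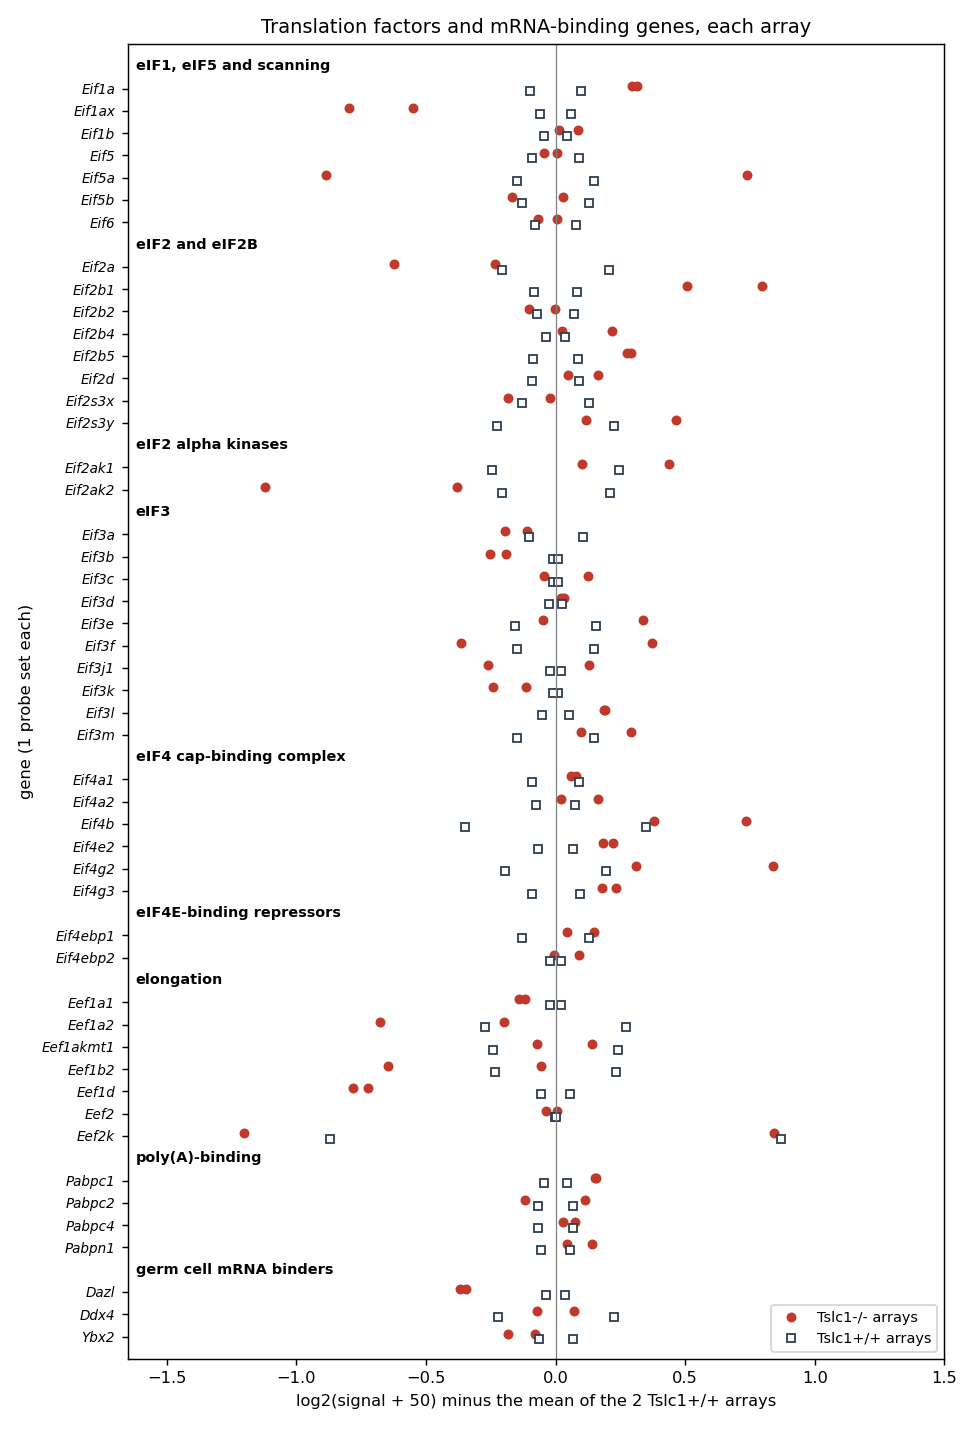
Each of the 49 tested genes on its own row, in groups by role, with the log2(signal + 50) of each array minus the mean of the 2 Tslc1+/+ arrays on the horizontal axis. Filled red circles are Tslc1-/- arrays and open squares Tslc1+/+ arrays. Eef1d stands apart at about -0.75 with its arrays close together, while dim genes such as Eef2k and Eif5a spread widely within a genotype.

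The spread between arrays of the same genotype was larger for dim genes. The fit takes each gene's standard error partly from probe sets of like signal, so its interval does not measure its own arrays alone. Pabpc4 had arrays close together, yet its standard error was 0.39. The larger of the within-genotype differences between arrays had a median of 0.10 on the log2 scale over the 14 genes with a mean signal of at least 5000, 0.19 over the 21 genes between 1000 and 5000, and 0.47 over the 14 genes below 1000. It reached 2.05 among those below 1000. Changes of the brightest factors were therefore measured far more tightly than those of the dim ones. In RNA of whole testis, fewer cells of a type and less RNA per cell cannot be told apart.

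**Figure D2:**
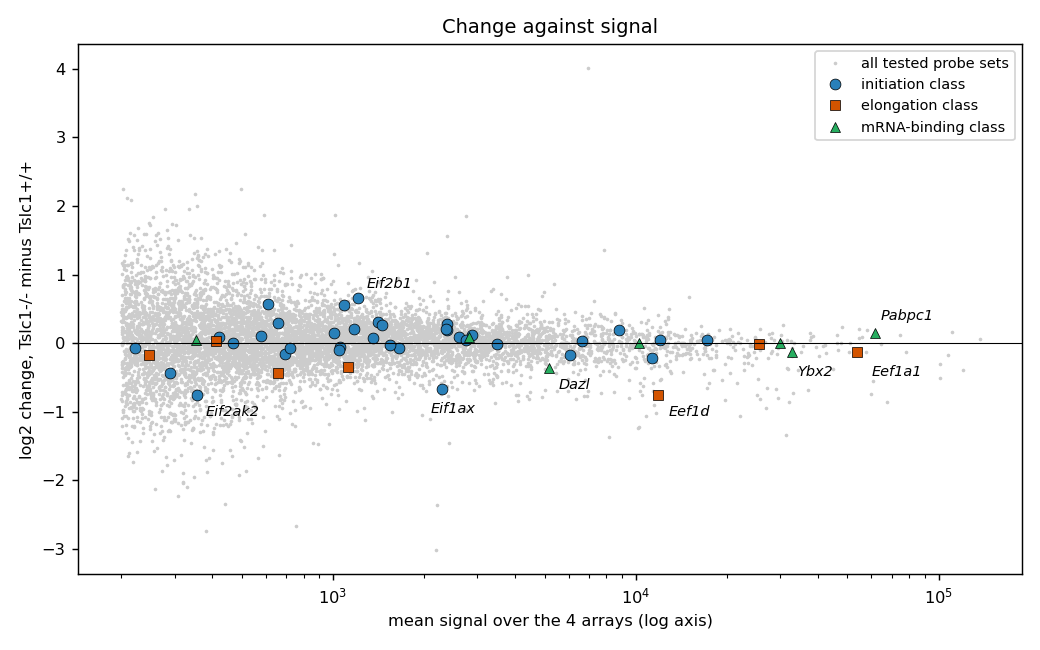
Log2 change (Tslc1-/- minus Tslc1+/+) against mean signal over the 4 arrays on a log axis, for all 7975 tested probe sets (grey) and the 49 genes of the initiation, elongation and mRNA-binding classes. The 49 genes lie within the grey cloud, with Eef1d (-0.75 at a mean signal of 11808) near its lower edge.

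Elongation was the class that held the call. Eef1d encodes the delta subunit of the eEF1B complex, which reloads the tRNA-delivering factor eEF1A with GTP. The gene lies on mouse chromosome 15. Its signal was 8965.0 and 8597.1 on the Tslc1-/- arrays, against 14250.8 and 15420.5 on the Tslc1+/+ arrays. Both mutant arrays were well below both wild-type arrays, and the gap between genotypes was larger than the gap within either. The means were 8781 ± 260.1 in Tslc1-/- and 14836 ± 827 in Tslc1+/+ (SD over 2 arrays each). The log2 change was -0.75, with a 95% interval from -0.96 to -0.54 and a standard error of 0.09, and it passed the test (limma, adjusted p = 0.0028). Only 1 probe set named Eef1d, and it carries no suffix that marks possible cross-hybridisation.

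The Eef1d call rested on few arrays. Without Tslc1+/+ replicate 2 the change was -0.70 and missed the threshold (limma, adjusted p = 0.0591), while it passed without each other array (adjusted p = 0.0291 to 0.0481). It was also lost when the spread was not allowed to follow signal intensity (limma, adjusted p = 0.469, unadjusted p = 0.00907).

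Some markers of late germ cells also fell in Tslc1-/- testis, as did single markers of other cell types. Of 7 tested round spermatid markers, 4 were called lower and none higher, and their summed signal was 124292 and 127160 in Tslc1-/-, against 186565 and 193792 in Tslc1+/+. Of 12 tested elongating spermatid markers, 6 were called lower and none higher. Their sums were 429755 and 403971 in Tslc1-/-, against 595395 and 599180 in Tslc1+/+. In this list Prm2 (0.18) and Haspin (0.13) changed the other way, and neither was called. Of 6 tested meiotic markers 1 was called lower, Pgk2 at -0.78 (limma, adjusted p = 0.00495). Of 6 tested peritubular myoid markers 1 was called lower, Actg2 at -0.57 (limma, adjusted p = 0.0192). None of the 5 spermatogonial, 9 Sertoli or 7 Leydig markers tested was called. Of all tested probe sets 0.84% were called lower, and of those with a mean signal of at least 5000, 6.58%. The lowest reading of the round and elongating spermatid markers was 152.5, for Prm2 on Tslc1+/+ replicate 2. Over all probe sets of the 4 arrays the lowest value was 1.5, so none read 0. The part of these markers in the Eef1d result was not tested.

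The other elongation factors did not pass. Eef1a1, the main carrier of aminoacyl-tRNA in most cells, read 50844.9 and 51708.7 in Tslc1-/-, against 56971.2 and 55239.7 in Tslc1+/+. Its arrays did not overlap, but the difference was small, at a log2 change of -0.13 with an interval from -0.28 to 0.02 (limma, adjusted p = 0.583). Eef2, which moves the ribosome along the mRNA by 1 codon, read 25690.3 and 24958.4 in Tslc1-/-, against 25540.9 and 25667.7 in Tslc1+/+. Its change was -0.02 with an interval from -0.19 to 0.15, so that a change as large as that of Eef1d lies outside its interval.

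Another subunit of the eEF1B complex, Eef1b2, had overlapping arrays, with 1197.6 and 777.2 in Tslc1-/- against 1053.1 and 1472.5 in Tslc1+/+. Its log2 change was -0.35 with an interval from -0.92 to 0.22, which holds both 0 and the Eef1d value. The Eef1b2 probe set carries the suffix letter r, and any suffix letter was treated here as a sign of possible cross-hybridisation. Whether Eef1d and Eef1b2 differed from each other in their response was not tested. The third subunit, Eef1g, was read by a probe set at 99.8 and 6.3 in Tslc1-/-, against 30.4 and 27.3 in Tslc1+/+, below the signal filter. Of the eEF1B complex, only Eef1d was thus measured with precision on this array.

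The remaining elongation genes were dim. Eef1a2, the eEF1A form of muscle and neurons, had a change of -0.44 with an interval from -1.11 to 0.23. Eef2k, the kinase that inhibits eEF2, read 413.9 and 62.4 in Tslc1-/-, against 91.5 and 422.9 in Tslc1+/+, so arrays of the same genotype disagreed more than genotypes did. Eef1akmt1, a methyltransferase of eEF1A, had a change of 0.03. The median change of the 7 tested elongation genes was -0.18, and 6 of the 7 were negative, against 3787 of 7975 tested probe sets. That median is the value of Eef2k itself, whose interval ran from -2.17 to 1.81. The negative changes include Eef2 at -0.02, and the class as a whole was not tested. On single arrays this median stood at -0.05 and -0.20 in Tslc1-/-, and at 0.00 on both Tslc1+/+ arrays, relative to the Tslc1+/+ mean. With this reference the 2 Tslc1+/+ values must be equal in size and opposite in sign. It was -0.05 when Tslc1-/- replicate 2 was left out and -0.35 over probe sets with a mean signal of at least 500.

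**Figure D3:**
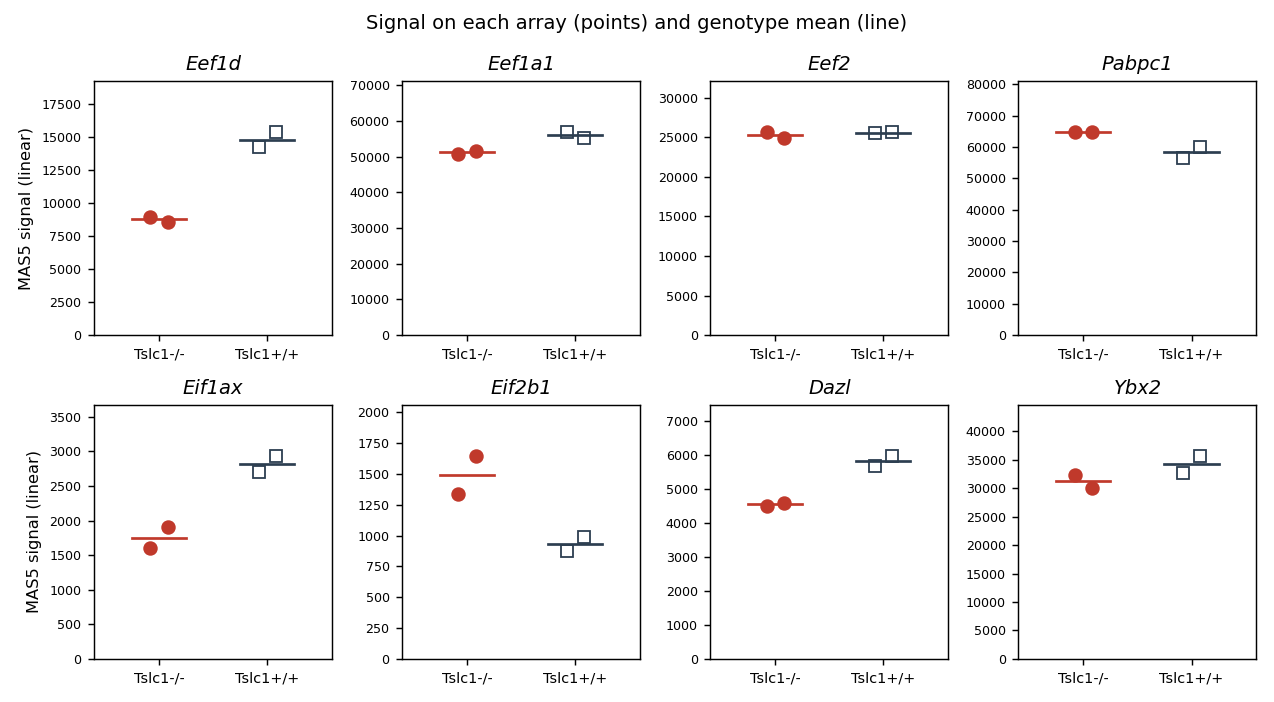
Signal of 8 genes on each array, on linear axes that start at 0, with Tslc1-/- arrays (filled circles) left of Tslc1+/+ arrays (open squares) and a line at each genotype's mean. The gap is widest relative to the within-genotype spread for Eef1d, while for Eef2 the Tslc1-/- arrays lie on both sides of the Tslc1+/+ mean.

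No gene of the initiation class, which holds every gene with an Eif symbol whatever its role, passed the test, among 35 tested of 41. The class median was 0.05, with 22 positive and 13 negative changes, and 14 of 35 genes had arrays that did not overlap (40.0%, against 40.0% of all tested probe sets). On single arrays the class median stood at 0.06 and 0.05 in Tslc1-/-, against -0.05 and 0.05 in Tslc1+/+.

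Factors that act at scanning and subunit joining held the initiation gene with the smallest p. Eif1ax, the X-linked gene of eIF1A, which helps the small subunit scan for the start codon, read 1599.2 and 1909.8 in Tslc1-/-, against 2699.7 and 2940.1 in Tslc1+/+. The arrays did not overlap, and the change was -0.67, with an interval from -1.03 to -0.32 and a standard error of 0.16, which did not pass over all tested probe sets (limma, adjusted p = 0.0988). A second, dimmer Eif1ax probe set pointed the other way, at 298.9 and 315.5 in Tslc1-/- against 218.5 and 270.2 in Tslc1+/+, a change of 0.28 with an interval from -0.81 to 1.38.

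The autosomal gene of the same factor, Eif1a, had positive changes on both of its tested probe sets, 0.31 (interval from -0.09 to 0.71) and 0.65 (interval from -0.27 to 1.57). The brighter of them read 1567.4 and 1546.8 in Tslc1-/-, against 1164.4 and 1341.7 in Tslc1+/+. The genes Eif1a and Eif1ax encode closely similar proteins, so probes for one may also bind the transcript of the other, which the signals alone cannot separate.

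The other 5 genes placed in this group, which was formed by symbol, had changes within 0.08 of 0. Eif1b, a paralog of the start codon factor eIF1 and the brightest of this group, read 11930.1 and 12563.9 in Tslc1-/-, against 12203.6 and 11478.4 in Tslc1+/+. Its change was 0.05 with an interval from -0.16 to 0.25. Eif5, which triggers GTP hydrolysis on eIF2 at the start codon, was at -0.02. Eif5b, which joins the ribosomal subunits, was at -0.07, and Eif6, which keeps the large subunit from joining too early, was at -0.03. The Eif5a probe set was dim and uneven, with 89.3 and 379.7 in Tslc1-/-, against 182.5 and 235.5 in Tslc1+/+. Its change of -0.07 had an interval from -1.72 to 1.57, which is too wide to place it near 0.

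Among the genes of eIF2, which carries the initiator tRNA, and of its exchange factor eIF2B, 8 of 9 were tested. Eif2b1, the regulatory alpha subunit of eIF2B, read 1336.5 and 1648.7 in Tslc1-/-, against 872.0 and 985.2 in Tslc1+/+. Both mutant arrays were above both wild-type arrays, at a change of 0.65 with an interval from 0.20 to 1.10, which was the largest positive change of the 49 genes but did not pass (limma, adjusted p = 0.239). Eif2b5, the catalytic epsilon subunit, also had arrays that did not overlap, with 2601.9 and 2626.7 in Tslc1-/- against 2277.2 and 2008.8 in Tslc1+/+. Its change was 0.28 (interval from -0.04 to 0.61), and its second probe set was at 0.20.

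The other eIF2B subunits differed less. Eif2b4, the delta subunit and the brightest of the group, read 2792.6 and 3201.3 in Tslc1-/-, against 2819.8 and 2673.8 in Tslc1+/+, a change of 0.12. Eif2b2, the beta subunit, was at -0.05. Of the eIF2 gamma subunit genes, the X-linked Eif2s3x was at -0.10. The Y-linked Eif2s3y, which mouse spermatogonia need to proliferate, was at 0.29 with an interval from -0.34 to 0.92. The probe sets of Eif2b4 and Eif2s3y carry a cross-hybridisation suffix, so their values may include other transcripts. Eif2a and Eif2d, which can deliver initiator tRNA by other routes, were at -0.43 and 0.11, the first of them on a dim probe set with an interval from -1.52 to 0.66.

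The eIF2 alpha kinases shut down general initiation under stress, and 2 of the 4 were tested. Eif2ak2, the kinase PKR that responds to double-stranded RNA, read 179.9 and 333.5 in Tslc1-/-, against 527.1 and 382.4 in Tslc1+/+. The arrays did not overlap, yet the change of -0.75 had an interval from -1.75 to 0.25 (limma, adjusted p = 0.651). It was almost as large as that of Eef1d, with a standard error of 0.45 in place of 0.09, and ranged from -1.12 (without Tslc1-/- replicate 2) to -0.38 (without Tslc1-/- replicate 1). Eif2ak1, the haem-regulated kinase, read 1775.2 and 1398.2 in Tslc1-/-, against 1546.8 and 1087.9 in Tslc1+/+, a change of 0.27 that ranged from 0.03 (without Tslc1+/+ replicate 2) to 0.51 (without Tslc1+/+ replicate 1).

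The promoters of the 3 genes with the smallest p among those whose arrays did not overlap and that have an entry in the RefSeq promoter table are printed here, as the regulatory sequences of the members nearest to a call besides Eef1d. Each is the 250 bases before the annotated start, 5′ to 3′ on the gene's own strand, from RefSeq on build GRCm38.p6, and 46 of the 56 genes matched that table. Capitals mark letters that match, on either strand, a GC box (GGGCGG), the core of the cAMP response element (TGACG) or a CCAAT box. These are descriptions of letters, not of binding.
Eif1ax, chrX:159371928-159372177, plus strand: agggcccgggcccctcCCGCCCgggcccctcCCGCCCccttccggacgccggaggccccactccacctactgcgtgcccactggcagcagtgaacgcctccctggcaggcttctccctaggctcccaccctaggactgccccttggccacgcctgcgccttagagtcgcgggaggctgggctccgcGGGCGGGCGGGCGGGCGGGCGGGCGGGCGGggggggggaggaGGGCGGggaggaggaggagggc
Eif2b1, chr5:124579132-124579381, minus strand: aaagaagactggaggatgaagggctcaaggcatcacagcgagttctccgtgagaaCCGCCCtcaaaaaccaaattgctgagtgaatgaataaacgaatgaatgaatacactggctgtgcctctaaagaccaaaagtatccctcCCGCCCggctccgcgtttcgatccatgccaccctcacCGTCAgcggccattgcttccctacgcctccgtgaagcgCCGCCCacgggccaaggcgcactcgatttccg
Dazl, chr17:50293621-50293870, minus strand: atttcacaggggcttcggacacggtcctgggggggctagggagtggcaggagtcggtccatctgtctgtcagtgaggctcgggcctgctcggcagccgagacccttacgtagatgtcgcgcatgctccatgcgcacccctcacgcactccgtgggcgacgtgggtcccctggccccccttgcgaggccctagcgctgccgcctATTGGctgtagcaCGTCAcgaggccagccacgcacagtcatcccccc

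The GC box occurred 10 times in the Eif1ax window, where 7 of the matches overlap in a run of repeats, and 3 times in that of Eif2b1. The TGACG letters were found once each before Eif2b1 and Dazl, and CCAAT once before Dazl. Over all 27025 genes of the table, 35.4% had a GC box in such a window, 19.8% TGACG and 37.5% CCAAT. Among the 46 matched genes 32 had a GC box, 22 TGACG and 16 CCAAT. That table holds genes of every kind, and the motifs were not compared with the changes.

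The eIF3 complex holds the small subunit open for the mRNA, and all 10 of its genes on the array were tested. Their changes all lay between -0.22 and 0.19, with a median of 0.01. Eif3b, a scaffold subunit, read 10705.6 and 10244.4 in Tslc1-/-, against 12148.9 and 12296.8 in Tslc1+/+. Its arrays did not overlap, and the change of -0.22 had an interval from -0.42 to -0.02 (limma, unadjusted p = 0.0346, adjusted p = 0.435). Eif3l moved the other way by a similar amount, with 9345.2 and 9391.3 in Tslc1-/- against 7926.6 and 8509.9 in Tslc1+/+, a change of 0.19 that did not pass.

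Eif3c, the brightest subunit gene on the array, had overlapping signals, 18443.6 and 16383.6 in Tslc1-/- against 16793.9 and 17038.8 in Tslc1+/+. Its change of 0.04 turned to -0.05 without Tslc1-/- replicate 1. Eif3d, the subunit that can bind the cap of some mRNAs, was at 0.03 with an interval from -0.20 to 0.26. Eif3k was at -0.18 with arrays that did not overlap. The subunit genes Eif3a, Eif3e, Eif3f, Eif3j1 and Eif3m had changes between -0.15 and 0.19, none called, with intervals wider than those of the brighter subunits.

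Genes of the cap-binding eIF4 factors all had positive changes, 6 of 6 tested, against 4188 of 7975 tested probe sets. The changes lay between 0.07 and 0.58 with a median of 0.20, and none passed. The group as a whole was not tested. For 4 of the 6 both Tslc1-/- arrays lay above both Tslc1+/+ arrays, against 21.5% of all tested probe sets. Eif4b, a cofactor of the mRNA-unwinding helicase, read 1460.9 and 1132.0 in Tslc1-/-, against 1106.2 and 663.0 in Tslc1+/+. The arrays of a genotype differed about as much as the genotypes did, and the change was 0.56 with an interval from -0.03 to 1.14 (limma, adjusted p = 0.525). With 1 array left out the change ranged from 0.21 (without Tslc1+/+ replicate 2) to 0.91 (without Tslc1+/+ replicate 1), and none of these passed. Both tested Eif4b probe sets carry a suffix letter (g and r), and the dimmer of them was at 0.24.

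Eif4g2, a scaffold for initiation without the cap-binding protein, read 599.4 and 887.4 in Tslc1-/-, against 407.4 and 549.3 in Tslc1+/+. Its change was 0.58 with an interval from -0.10 to 1.26 (limma, adjusted p = 0.592), and it ranged from 0.31 (without Tslc1-/- replicate 2) to 0.84 (without Tslc1-/- replicate 1). Eif4g3, a form of the scaffold that ties the cap to the helicase and that male meiosis in mice depends on, was at 0.21 (interval from -0.12 to 0.54). Eif4e2, a cap-binding protein that represses translation, was at 0.20. The helicase genes Eif4a2 and Eif4a1 were at 0.09 and 0.07, with 2826.1 and 2555.4 for Eif4a2 in Tslc1-/- against 2385.4 and 2653.0 in Tslc1+/+. The Eif4a1 probe set carries the suffix letter r.

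The repressors that hold the cap-binding protein eIF4E away from its scaffold did not differ beyond the spread of their arrays. Eif4ebp2 read 2688.8 and 2883.3 in Tslc1-/-, against 2740.9 and 2665.8 in Tslc1+/+, a change of 0.04 with an interval from -0.26 to 0.35. A second Eif4ebp2 probe set was at 0.79, on arrays as far apart as 1254.0 and 290.1 within Tslc1+/+. Eif4ebp1 was at 0.10 with an interval from -0.68 to 0.87.

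The mRNA-binding class had 7 tested genes of 7, no call, a median of 0.00, and changes between -0.36 and 0.15. On single arrays the class median stood at 0.03 and 0.07 in Tslc1-/-, relative to the Tslc1+/+ mean. It stood at -0.04 and 0.04 in Tslc1+/+, again mirrored by construction. Pabpc1, the main cytoplasmic poly(A)-binding protein, read 64804.8 and 64760.7 in Tslc1-/-, against 56462.6 and 60062.7 in Tslc1+/+. Both mutant arrays were higher, but the change was 0.15 with an interval from 0.00 to 0.31 (limma, unadjusted p = 0.0473, adjusted p = 0.487). With quantile normalization it was 0.28, just short of the threshold (adjusted p = 0.0506).

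The other poly(A)-binding genes had overlapping arrays. Pabpc2, an intronless gene of the same family expressed in mouse spermatogenic cells, read 32300.2 and 27468.7 in Tslc1-/-, against 31305.9 and 28445.3 in Tslc1+/+. Its change was 0.00 with an interval from -0.21 to 0.21, and quantile normalization moved it to 0.17, not called. Pabpn1, the nuclear protein that sets tail length, read 2797.2 and 2994.4 in Tslc1-/-, against 2610.7 and 2821.4 in Tslc1+/+, a change of 0.09. Pabpc4, an inducible cytoplasmic form, was dim, with 354.4 and 367.6 in Tslc1-/- against 365.6 and 328.5 in Tslc1+/+, a change of 0.05 with an interval from -0.82 to 0.92.

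Of the germ cell mRNA binders, Dazl lay lowest. DAZL promotes the translation of meiotic mRNAs and is needed for germ cell development. Its brighter probe set read 4501.7 and 4572.9 in Tslc1-/-, against 5672.4 and 5974.1 in Tslc1+/+. The arrays did not overlap, with a change of -0.36 and an interval from -0.60 to -0.11 (limma, unadjusted p = 0.00955, adjusted p = 0.244). The second Dazl probe set read 576.2 and 657.6 in Tslc1-/-, against 398.8 and 650.2 in Tslc1+/+, a change of 0.25 with an interval from -0.45 to 0.95. The probe sets of Dazl thus gave opposite signs, and neither was called.

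Ybx2, the Y-box protein that packages and stores mRNA in meiotic and later male germ cells, read 32351.8 and 30107.2 in Tslc1-/-, against 32640.5 and 35752.4 in Tslc1+/+. The genotypes were apart by a small margin only. The change was -0.13 with an interval from -0.31 to 0.05 (limma, adjusted p = 0.664), and it turned to 0.08 with quantile normalization. Ddx4, the germ cell RNA helicase known as VASA, read 9692.0 and 10694.3 in Tslc1-/-, against 11891.5 and 8704.6 in Tslc1+/+. Its change was 0.00 with an interval from -0.31 to 0.31, and the spread was widest within Tslc1+/+.

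**Figure D4:**
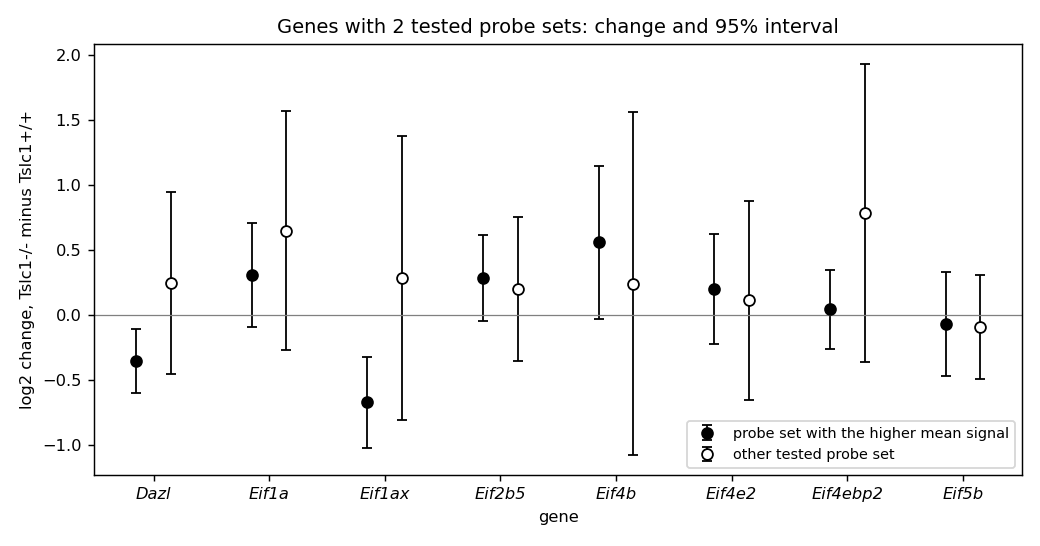
Log2 change (Tslc1-/- minus Tslc1+/+) with its 95% interval for the 8 genes that had 2 tested probe sets, the one with the higher mean signal as a filled circle left of the other (open circle). The probe sets of Dazl and Eif1ax have opposite signs, and those of the other 6 genes the same sign.

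Of the 56 genes, 16 had several probe sets, and 8 of these had 2 that passed the signal filter. For 6 of the 8 both changes had the same sign. The exceptions were Dazl and Eif1ax, for which the dimmer probe set had the wider interval, and each pair of intervals overlapped.

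The 7 genes below the filter were Eif2s2, Eif2ak3, Eif2ak4, Eif4e, Eif4h, Eif4enif1 and Eef1g. They encode the eIF2 beta subunit, the kinases PERK and GCN2, the cap-binding protein, a helicase cofactor, a protein that carries eIF4E into the nucleus, and the eEF1B gamma subunit. Their signals ran from 6.3 to 328.0 on single arrays. In a fit of all probe sets their changes ran from -0.65 to 0.81, with adjusted p between 0.766 and 0.941 (limma). At these levels the arrays of a genotype differed widely, as for Eif2s2 at 253.8 and 20.2 within Tslc1+/+, and none of these changes was called.

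Other genes of the pathway were examined in 3 lists. Of 6 tested termination and recycling genes none passed, and their median change was -0.09. The smallest p belonged to Gspt2, an eRF3 gene, at -0.48 (limma, adjusted p = 0.666), while Etf1, the release factor eRF1, read 8336.2 and 8000.5 in Tslc1-/- against 7466.9 and 7304.1 in Tslc1+/+. Of 15 tested regulators of cap- and tail-dependent translation none passed, with a median of 0.08. The growth kinase gene Mtor had the smallest p, with 3716.4 and 4123.2 in Tslc1-/- against 5259.9 and 4892.7 in Tslc1+/+, a change of -0.37 (limma, adjusted p = 0.275).

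Of 13 tested germ cell and spermatid RNA-binding genes, 1 rose and none fell, with a median of 0.15. Of all tested probe sets 0.238% were called higher, and of those with a mean signal of at least 5000, 0.7%, so 1 call among 13 genes is a description of that gene and not of the list. The gene that rose was Ybx3, a Y-box paralog of Ybx2 that in mice binds stored spermatid mRNAs such as that of protamine. It read 16036.5 and 20870.6 in Tslc1-/-, against 11094.2 and 11768.8 in Tslc1+/+, averaging 18454 ± 3418 with the mutation against 11432 ± 477.0 without it (SD over 2 arrays each). The arrays did not overlap, and the change was 0.68, with an interval from 0.41 to 0.95 and a standard error of 0.12, which passed the test (limma, adjusted p = 0.0263). It passed with quantile normalization (adjusted p = 0.0218) and without Tslc1-/- replicate 1 (0.0182), but not with Tslc1-/- replicate 2 left out (0.15) or with Tslc1+/+ replicate 1 (0.19) or 2 (0.126) left out. Nor did it pass with all probe sets tested (0.099) or with no intensity trend (0.574).

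The Y-box genes on the array thus had separate values: 0.68 for Ybx3, 0.16 for Ybx1 (interval from 0.00 to 0.32) and -0.13 for Ybx2. The intervals of Ybx3 and Ybx2 did not overlap, and the difference between them was not tested. Tarbp2, a double-stranded RNA-binding protein that mouse spermatids need for protamine translation, read 8106.1 and 7656.4 in Tslc1-/-, against 6075.5 and 6181.0 in Tslc1+/+, a change of 0.36 that did not pass (limma, adjusted p = 0.189).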

How the data were processed

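The authors deposited probe set intensity, on a linear scale, from an Affymetrix Mouse Genome array. Per the labels' design text, the authors computed it with Microarray Suite 5.0 (MAS5) and scaled each array globally to a common target, which hides changes in total RNA. Replicate arrays were entered separately in the fit, and detection calls were not used here. The genome build is not given in the sources used here. Here 50 was added before taking log2, and 7975 of 12488 probe sets with a mean of at least 200 were tested, 66 controls being left out.

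Genotypes were compared with limma 3.58.1 (R 4.3.3; lmFit, eBayes with an intensity trend), two-sided, with Benjamini-Hochberg adjusted p under 0.05 over the whole table as the threshold. The fit was tested on simulated data, where it missed most changes of the smaller sizes tried. A gene that did not pass may therefore still have changed. Intervals are 95% intervals of that fit. The number of arrays, 2 per genotype, limits precision, and the smallest two-sided p of an exact permutation test is 0.333. All 56 genes matched RefSeq (GRCm38.p6) by Entrez identifier.

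The genes and lists were chosen with earlier results of these data known. Named with values were called genes, genes whose arrays did not overlap with a log2 size of at least 0.5, the brightest and the smallest-p gene of each role group, Ybx2, Dazl, Ddx4, the Pabp genes, called or smallest-p genes of the other lists, and Cadm1. Further genes were named after their values were seen. Alternatives were the pseudocount (16, 100), the filter (none, 500), quantile normalization, equal array medians, no trend, no suffixed probe sets, the mean over probe sets of a gene, a replicate block and each array left out.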

Additional observations from a re-analysis of the deposited data

How the results depend on the processing

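Of 282 values for 22 named genes under the alternatives, 264 kept their direction and side of the threshold. Only Eef1d and Ybx3 of these genes passed in the main fit, so for the others this mostly means staying uncalled. The values that lost a call all belonged to Eef1d or Ybx3. The count of called genes among the 49 was 1, and it was 0 without the intensity trend (where 3 had an unadjusted p under 0.05, against 6 with it), 2 with the replicate block, where Eif1ax joined Eef1d (-0.67, adjusted p = 0.0143), and 0 to 1 with an array left out. For all probe sets the count was 86, 58 with no filter on signal, 0 without the trend, 239 with the replicate block and 37 to 43 with an array left out. The numbers share no stated animal, and deviations of same-numbered arrays correlated at r = -0.001, so the block is not used for any result. The elongation median moved to -0.35 at a mean signal of at least 500 and ranged from -0.20 to -0.055 with an array left out. The mRNA-binding median moved to 0.081 with quantile normalization and ranged from -0.065 to 0.072 with an array left out. The signs that turned, for Pabpc2, Ybx2, Ddx4, Eif3c, Eif4ebp2 and Pabpc4, were of changes with a size of at most 0.13. Quantile normalization gave 0.17 for Pabpc2 and 0.085 for Ybx2, and equal medians gave -0.019 for Ddx4. With an array left out Ddx4 ranged from -0.22 to 0.22, Pabpc2 from -0.12 to 0.11, Eif3c from -0.046 to 0.12, Eif4ebp2 from -0.0075 to 0.092 and Pabpc4 from -0.016 to 0.12. Signal over background limits the 7 genes below the filter.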
